A study of Mus musculus with 12 samples.

Results

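Chemokines are small secreted proteins that steer leukocytes, and they act through G protein-coupled receptors. Of the 17408 genes in the deposited normalized table, 41 carried a chemokine or chemokine receptor symbol (the Ccl, Cxcl, Xcl1 and Cx3cl1 ligands, the Ccr, Cxcr, Xcr1 and Cx3cr1 receptors and Ackr1 to Ackr4). Cxcl12 was left out of this set. The set held 21 ligands, 16 signalling receptors and 4 atypical receptors, which bind chemokines without signalling through G proteins. All 41 passed the low-count filter and were tested.

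RNA came from the femoral shaft of male mice aged 12 weeks, after the marrow had been spun out. The mice were labelled Cat -/- (here knockout) or Cat +/+ (here wild type) for catalase, an enzyme that breaks down hydrogen peroxide. Gavage on 4 days gave ethanol as a 31.5% (v/v) solution, at 3 g for each kg of mouse on the first pair of days, then at 4 g and last at 4.5 g, or an equal volume of PBS, and the mice were killed 6 hours after the last dose. Each of the 4 groups had 3 libraries, and every library pooled the RNA of 2 mice, so the p-values below measure the spread between pools. Strain, the cells in which the Cat allele is lost and the kinship of the mice were not stated in the labels. Libraries are called by the numbers of their labels: 7 to 9 are wild type under PBS, 10 to 12 wild type under ethanol, 1 to 3 knockout under PBS and 4 to 6 knockout under ethanol.

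In bone and its marrow, CXCR4 and CXCR2 are known for opposite roles in the traffic of neutrophils: CXCR4 holds them in the marrow and CXCR2 draws them out. CCR1 and its mouse ligands CCL6 and CCL9 serve monocytes, neutrophils and osteoclast precursors, and osteoclasts are a known source of CCL9. CXCL9 and CXCL10 are induced by interferons and act on CXCR3 of T and natural killer (NK) cells. Those lymphocytes themselves release XCL1, which acts on XCR1 of a class of dendritic cells, and CCL4, which attracts further leukocytes.

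The libraries held 19950222 to 28789308 counts, and the 41 genes took 0.119% to 0.177% of them. Cat stood at 65.9 to 74.2 CPM, the count scaled to a common library size, in knockout libraries and at 127.9 to 174.7 CPM in wild-type ones, without overlap, so the transcript was lower in knockout but still present. The nature of the allele was not stated, and catalase protein or activity was not measured here. A list of 16 skeletal muscle genes summed to 32309, 35688 and 36729 CPM in libraries 8, 9 and 12, against at most 18120 CPM in any other library, so calls that change without those 3 libraries are named. Markers of bone (osteoblast list, 12396 to 43783 CPM summed over 14 genes) and of marrow cells (neutrophil list, 24409 to 43306 CPM summed over 14 genes) were both abundant in every library.

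Promoters are shown for Ccr1 and its ligands Ccl6 and Ccl9 and for the interferon-induced pair Cxcl9 and Cxcl10, since these hold 5 of the 9 calls described below. Each is the 250 bases before the RefSeq start in build GRCm38.p6, read 5′ to 3′ on the gene's own strand, which is minus for all 5. The windows are chr11:83593088-83593337 for Ccl6, chr11:83578637-83578886 for Ccl9, chr9:123968693-123968942 for Ccr1, chr5:92328080-92328329 for Cxcl9 and chr5:92348890-92349139 for Cxcl10. Capitals mark matches to the motifs searched.
Ccl6: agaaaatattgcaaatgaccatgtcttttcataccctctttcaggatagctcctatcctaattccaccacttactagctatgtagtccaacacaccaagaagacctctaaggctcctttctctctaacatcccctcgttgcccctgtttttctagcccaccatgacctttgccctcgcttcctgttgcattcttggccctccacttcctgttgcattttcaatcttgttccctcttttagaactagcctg
Ccl9: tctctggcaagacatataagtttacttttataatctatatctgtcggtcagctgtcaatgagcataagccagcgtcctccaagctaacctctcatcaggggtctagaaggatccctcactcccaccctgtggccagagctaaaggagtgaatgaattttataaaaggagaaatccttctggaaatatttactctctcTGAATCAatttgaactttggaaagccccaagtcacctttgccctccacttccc
Ccr1: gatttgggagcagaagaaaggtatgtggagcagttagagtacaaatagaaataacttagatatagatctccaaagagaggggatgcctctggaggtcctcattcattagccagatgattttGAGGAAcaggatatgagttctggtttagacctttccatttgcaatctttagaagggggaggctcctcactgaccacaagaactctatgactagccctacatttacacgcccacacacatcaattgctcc
Cxcl9: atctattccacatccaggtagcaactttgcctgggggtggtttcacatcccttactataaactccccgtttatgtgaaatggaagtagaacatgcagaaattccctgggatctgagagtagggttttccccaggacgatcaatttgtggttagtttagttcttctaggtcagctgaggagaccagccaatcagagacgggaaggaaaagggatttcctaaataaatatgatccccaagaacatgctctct
Cxcl10: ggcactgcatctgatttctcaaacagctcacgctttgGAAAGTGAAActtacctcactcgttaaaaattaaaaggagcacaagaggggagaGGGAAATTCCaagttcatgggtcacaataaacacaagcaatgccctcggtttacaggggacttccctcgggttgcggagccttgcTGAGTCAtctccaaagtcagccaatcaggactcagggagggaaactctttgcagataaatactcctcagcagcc

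The windows of the 31 members that RefSeq matched were searched on both strands for 5 motifs. They were NF-kB (GGGA and TTCC with any 2 bases between), the interferon-stimulated response element or ISRE (GAAA and GAAA with any 2 bases between), the gamma-activated site or GAS (TTC and GAA with any 3 bases between), AP-1 (TGANTCA) and PU.1 (GAGGAA). The Cxcl10 window held an ISRE match at bases -213 to -204, an NF-kB match at -159 to -150 and an AP-1 match at -74 to -68, counted back from the start, and none of the 3 overlapped another. Of all 32851 windows of this length, 2.98% held an ISRE match, 1.21% an NF-kB match and 6.75% an AP-1 match. The Ccl9 window held 1 AP-1 match, at -53 to -47. The Ccr1 window held 1 PU.1 match, at -129 to -124, a motif found in 23.3% of all windows and in 10 of the 31 members. No match to these letters was found in the Ccl6 and Cxcl9 windows. GAS matches stood in 2 of the 31 members and in 7.02% of all windows. These matches describe letters and not bound sites.

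Levels spanned a wide range. Per kilobase of exon (CPM/kb, which allows genes to be compared), the mean over the 12 libraries ran from 0.183 for Xcr1 to 118 for Cxcr4. Only 10 genes reached 10 CPM/kb, 11 lay under 1 CPM/kb, and 14 had a mean count under 50, which limits the precision of their ratios. Among ligands the highest levels were those of Ccl6 at 104 CPM/kb, Cxcl14 (a ligand made by stroma and epithelia) at 80.4, Ccl9 at 25.2, Ccl5 at 11.7, Ccl3 at 3.61 and Cxcl5 (a ligand of CXCR2) at 3.52. Among receptors the order was Cxcr4 at 118 CPM/kb, Cxcr2 at 56.7, Ccr2 (the receptor that brings monocytes out of the marrow) at 35.0, Ccr1 at 34.8, Ackr3 at 25.5 and Ackr1 at 16.7. Ccr2 and Ccr1 had nearly equal means, whereas every library had more Cxcr4 than Cxcr2 per kilobase.

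**Figure D1:**
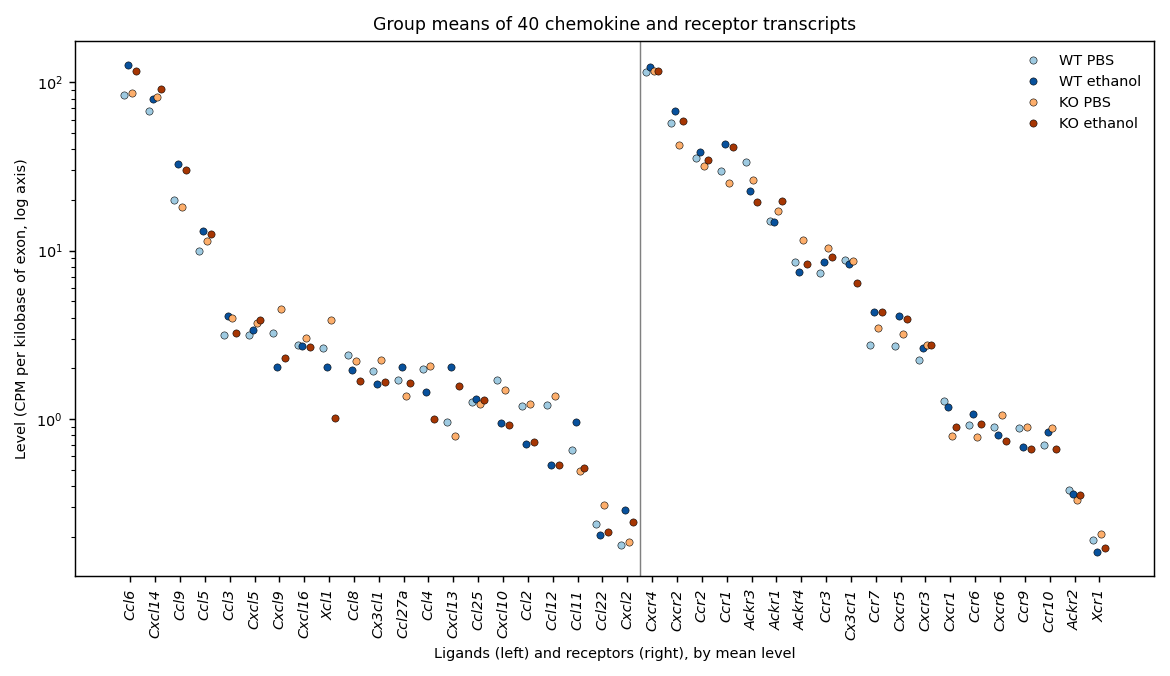
Mean level of 40 of the 41 genes in CPM/kb (log axis), ligands and receptors apart, with 1 point for each of the 4 groups. Cxcr4 (118) and Ccl6 (104) stand at the top and Xcr1 (0.183) at the bottom, and the 4 groups of a gene lie close together beside the spread between genes.

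Binge ethanol moved the family in both directions. In the effect of ethanol averaged over both genotypes, Ccl6, Ccl9, Ccr1, Cxcr2 and Cxcl13 rose, by 1.27-fold to 2.04-fold, and Cxcl9, Cxcl10, Xcl1 and Ccl4 fell, to 0.458-fold to 0.600-fold of the PBS level. These 9 of 41 genes (22%) were called by edgeR's quasi-likelihood test at a Benjamini-Hochberg adjusted p under 0.05, against 10.8% of all 18161 genes tested; 5.02% of all genes rose and 5.81% fell. At an unadjusted p under 0.05 stood 19 members (46.3%, against 26.2% of all genes). The median log2 change over all 41 members was 0.037, with 24 of them above 0, and over all genes it was -0.0088.

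**Figure D2:**
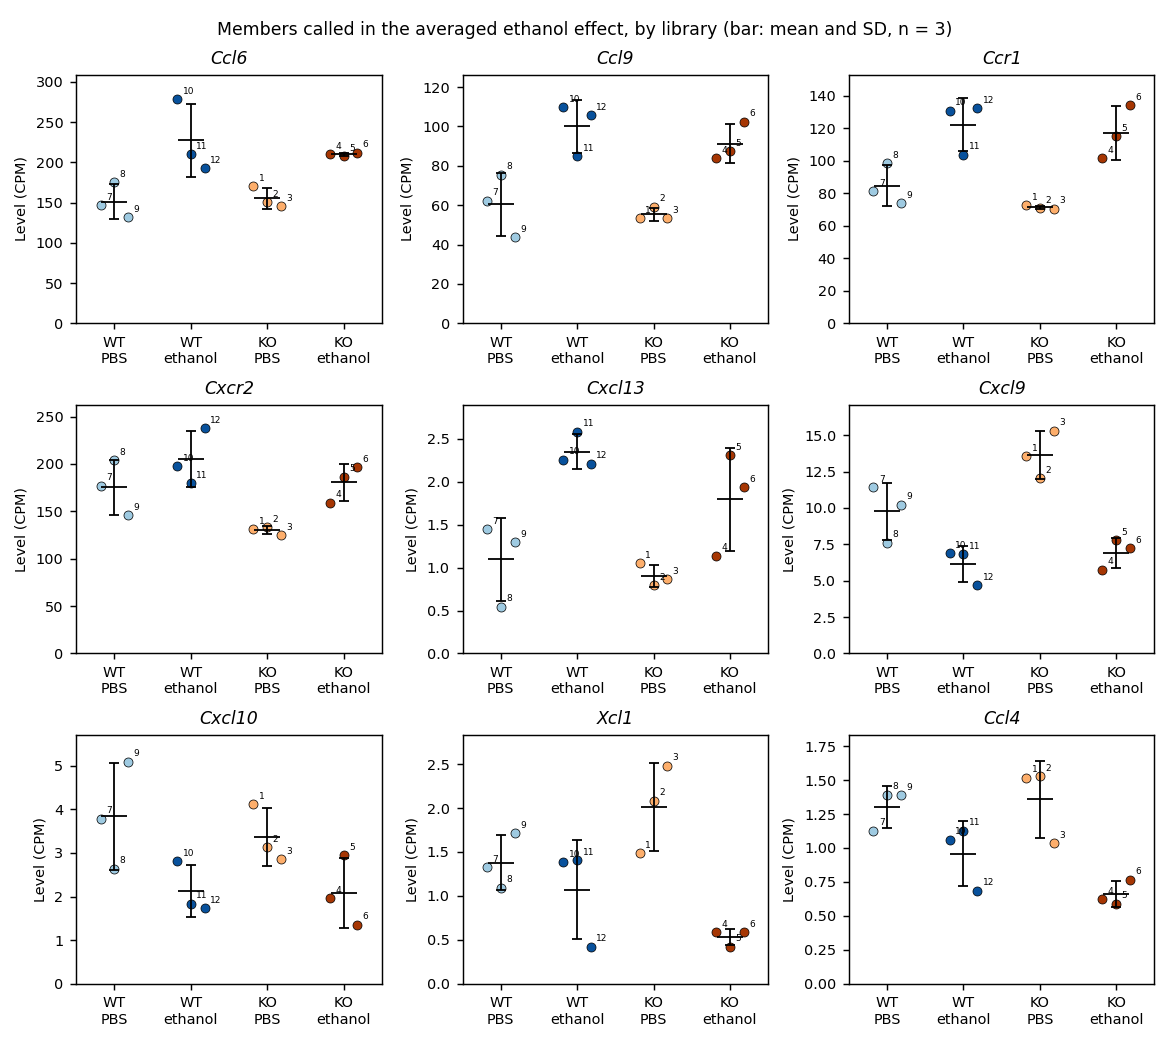
Level in CPM (linear axis from 0) of the 9 genes called for the averaged ethanol effect, with 1 numbered point per library and the group mean with its SD (n = 3 pools of 2 mice). Ccl6, Ccl9, Ccr1 and Cxcl13 do not overlap between gavages in either genotype, and neither do Cxcl9 and Ccl4.

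Ccr1 and its ligands Ccl9 and Ccl6 rose, whereas Ccl3 (averaged log2 0.04, edgeR adjusted p = 0.919) and Ccl5 (0.27, edgeR adjusted p = 0.173), which also bind CCR1, were not called. Ccr1 (ENSMUSG00000025804, chromosome 9, 123962124 to 123968692, minus strand, GRCm38) stood at 81.3, 98.5 and 73.9 CPM in the wild-type PBS libraries 7 to 9 and at 131, 104 and 132 CPM in the wild-type ethanol libraries 10 to 12. It stood at 72.5, 70.8 and 70.3 CPM in the knockout PBS libraries 1 to 3 and at 101, 115 and 134 CPM in the knockout ethanol libraries 4 to 6. All 6 ethanol libraries lay above all 6 PBS libraries. The log2 change was 0.62 on average (SE 0.09, edgeR adjusted p = 0.00246), 0.72 in knockout (SE 0.13, edgeR adjusted p = 0.0212) and 0.53 in wild type (SE 0.13, edgeR adjusted p = 0.0711), where it was not called. In bulk RNA of this kind, more cells of a type and more RNA per cell cannot be told apart.

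Its ligand Ccl9 (ENSMUSG00000019122, chromosome 11, 83572919 to 83578636, minus strand) read 62.3, 75.6 and 43.8 CPM in wild type under PBS and 110, 84.8 and 106 CPM under ethanol. In knockout it read 53.3, 59.2 and 53.4 CPM under PBS and 84.0, 87.5 and 102 CPM under ethanol. Again all 6 ethanol libraries exceeded all 6 PBS libraries, and the change was of like size in both genotypes: log2 0.73 (SE 0.17) in wild type, 0.72 (SE 0.17) in knockout and 0.72 on average (SE 0.12, edgeR adjusted p = 0.0060).

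Ccl6 (ENSMUSG00000018927, chromosome 11, 83587882 to 83593087, minus strand), the most abundant ligand of the set, read 147, 175 and 132 CPM in wild type under PBS and 279, 210 and 193 CPM under ethanol. In knockout the PBS libraries read 170, 151 and 146 CPM and the ethanol libraries 210, 208 and 212 CPM. No PBS library reached an ethanol library. The averaged log2 change was 0.51 (SE 0.09, edgeR adjusted p = 0.0076). Ccr1, Ccl9 and Ccl6 were called for the averaged effect in all 22 alternative analyses.

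Osteoclast and monocyte markers are given beside these 3 genes. Of 14 osteoclast genes 2 were called, both higher (14.3%, against 5.02% of all genes). The first was Calcr (the calcitonin receptor, log2 1.97, SE 0.21, edgeR adjusted p = 0.000507). The other was Ocstamp (a fusion gene, log2 0.74, SE 0.19, edgeR adjusted p = 0.0294). Of the 14 genes, 13 were higher under ethanol, with a list median of 0.21. Their summed level was 3515 to 3635 CPM in wild type under PBS and 3733 to 5132 CPM under ethanol. In knockout it was 3734 to 4014 CPM under PBS and 3652 to 4286 CPM under ethanol. Mmp9, Car2 and Itgb3 had the highest means of the list, at 968, 955 and 641 CPM, and Itgb3 is also on the platelet list used here. Calcr and Ocstamp had means of 3.88 and 5.72 CPM, so the sum hardly reflects them and is not specific to osteoclasts. Of 12 monocyte and macrophage genes, 9 were higher and 1 was called higher (8.33%, against 5.02% of all genes). That gene was Cd163 (a macrophage scavenger receptor, log2 0.50, SE 0.12, edgeR adjusted p = 0.0277). The summed level of the 12 genes was 3822 to 5568 CPM under PBS and 4359 to 5499 CPM under ethanol. Lyz2 alone had a mean of 3389 CPM, so the sum mostly follows that gene. Its lowest and highest values, in libraries 9 and 8, fell where the neutrophil sum was also lowest and highest. The sum is therefore not a measure of monocytes and macrophages alone. None of these markers was at 0 in any library. Their part in the rise of Ccr1, Ccl9 and Ccl6 was not tested.

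**Figure D3:**
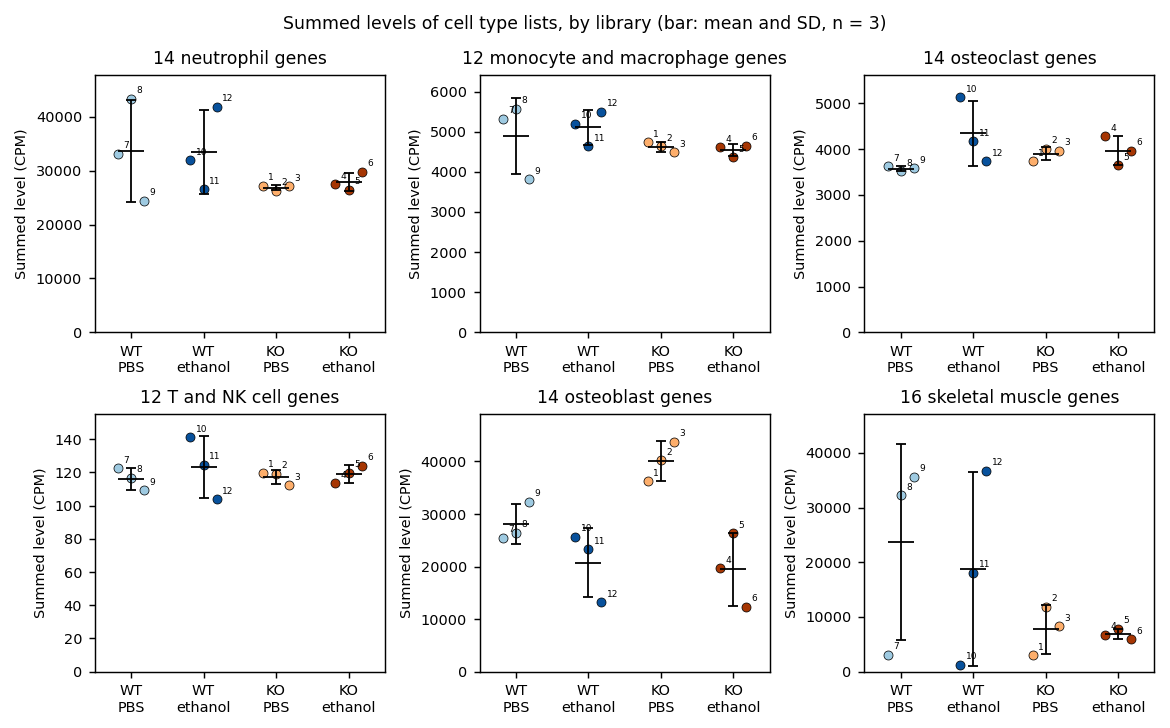
Summed level in CPM (linear axis from 0) of 6 marker lists in the 4 groups, with 1 numbered point per library and bars for the group mean and its SD (n = 3). The skeletal muscle sum of libraries 8, 9 and 12 stands far above the rest, and the osteoblast sum is lower under ethanol than under PBS in knockout.

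Cxcr2 (ENSMUSG00000026180, chromosome 1, 74153989 to 74161246, plus strand), the receptor that draws neutrophils towards CXCL1, CXCL2 and CXCL5, changed less. Its wild-type levels were 177, 204 and 146 CPM under PBS and 197, 180 and 237 CPM under ethanol, and its knockout levels 131, 133 and 125 CPM under PBS and 159, 187 and 196 CPM under ethanol. The gavages did not overlap in knockout but did in wild type. The averaged log2 change was 0.35 (SE 0.09, edgeR adjusted p = 0.0330), and the difference between genotypes in that change was 0.25 (SE 0.18, edgeR adjusted p = 1). The call was lost without any 1 of libraries 1, 2, 3, 5, 6, 7, 9, 10 or 12, at a log2 change of 0.29 to 0.36 and an edgeR adjusted p of 0.0519 to 0.0851. Of 22 alternative analyses 10 lost the call, and 9 of these left out 1 library.

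The 14-gene neutrophil sum was 24409 to 43306 CPM in wild type under PBS, 26513 to 41874 CPM in wild type under ethanol, 26255 to 27174 CPM in knockout under PBS and 26435 to 29810 CPM in knockout under ethanol. Of these genes 10 were higher under ethanol, and none was at 0 in any library. In the averaged effect 1 was called higher (7.14%, against 5.02% of all genes). That gene was Mmp8 (neutrophil collagenase, log2 0.42, SE 0.11, edgeR adjusted p = 0.0315). In knockout alone Cxcr2 was called under 4 alternatives: with the neutrophil list as a covariate (log2 0.38, edgeR adjusted p = 0.0165), with DESeq2 (0.48, DESeq2 adjusted p = 0.0167), with only the groups compared (0.47, edgeR adjusted p = 0.00941) and without libraries 8, 9 and 12 (0.48, edgeR adjusted p = 0.00681). Cxcl5 and Cxcl2, ligands of this receptor, had averaged log2 changes of 0.07 (SE 0.12) and 0.54 (SE 0.48) and were not called. Cxcr4, the opposing receptor, had 0.05 (SE 0.08).

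Cxcl13 (ENSMUSG00000023078, chromosome 5, 95956951 to 95961068, plus strand), which guides B cells into follicles, was low but rose the most. Wild-type libraries held 1.45, 0.547 and 1.30 CPM under PBS and 2.26, 2.58 and 2.21 CPM under ethanol, and knockout libraries 1.05, 0.799 and 0.868 CPM under PBS and 1.14, 2.31 and 1.93 CPM under ethanol. The gavages did not overlap within either genotype, although knockout ethanol library 4 lay below wild-type PBS libraries 7 and 9. The averaged log2 change was 1.03 (SE 0.23, edgeR adjusted p = 0.0179). It fell short of the threshold without library 2 (0.99, edgeR adjusted p = 0.0525) and without libraries 8, 9 and 12 (0.87, edgeR adjusted p = 0.0518). Its receptor Cxcr5 had an averaged log2 change of 0.45 (SE 0.17, edgeR adjusted p = 0.123), and no gene of a 10-gene B cell list was called.

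The interferon-induced CXCR3 ligands fell. Cxcl9 (ENSMUSG00000029417, chromosome 5, 92321347 to 92328079, minus strand) read 11.4, 7.61 and 10.2 CPM in wild type under PBS and 6.87, 6.81 and 4.69 CPM under ethanol. In knockout it read 13.6, 12.1 and 15.3 CPM under PBS and 5.76, 7.77 and 7.23 CPM under ethanol. Within each genotype every ethanol library was below every PBS library. The log2 change was -0.83 on average (SE 0.13, edgeR adjusted p = 0.00395), -0.98 in knockout (SE 0.19, edgeR adjusted p = 0.0260) and -0.67 in wild type (SE 0.19, edgeR adjusted p = 0.111). The averaged change was called in all 22 alternatives.

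Cxcl10 (ENSMUSG00000034855, chromosome 5, 92346638 to 92348889, minus strand) read 3.78, 2.64 and 5.09 CPM in wild type under PBS and 2.81, 1.83 and 1.74 CPM under ethanol. In knockout it read 4.12, 3.13 and 2.85 CPM under PBS and 1.97, 2.94 and 1.35 CPM under ethanol. The gavages overlapped by 1 library in each genotype, at library 10 in wild type and at library 5 in knockout. The averaged log2 change of -0.77 (SE 0.22, edgeR adjusted p = 0.0472) lay at the threshold. The call was lost without any 1 of libraries 1, 2, 3, 4, 6, 7, 9, 11 or 12 (log2 -0.82 to -0.65, edgeR adjusted p 0.0653 to 0.113) as well as without libraries 8, 9 and 12 (log2 -0.69, edgeR adjusted p = 0.116), with upper-quartile factors (-0.76, edgeR adjusted p = 0.0520) and with the neutrophil list as a covariate (-0.64, edgeR adjusted p = 0.0603). Exons of Art3 on the opposite strand cover 5.91% of its exon length.

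Their receptor Cxcr3 had an averaged log2 change of 0.12 (SE 0.12, edgeR adjusted p = 0.565), so the ligands and the receptor did not move alike. Of 20 interferon response genes, 1 fell (5%, against 5.81% of all genes) and 1 rose (5%, against 5.02%), the latter Ifngr1 (an interferon gamma receptor subunit, log2 0.21, SE 0.06, edgeR adjusted p = 0.0349). The other 18 did not pass the test, and the list median was -0.013.

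Xcl1 (ENSMUSG00000026573, chromosome 1, 164931644 to 164935527, minus strand) had the largest log2 change of the 41 genes in knockout. Its levels there were 1.48, 2.08 and 2.48 CPM under PBS and 0.587, 0.420 and 0.584 CPM under ethanol. In wild type they were 1.33, 1.09 and 1.71 CPM under PBS and 1.38, 1.41 and 0.421 CPM under ethanol. The knockout groups lay far apart, whereas in wild type only library 12 was low. The log2 change was -1.90 in knockout (SE 0.38, edgeR adjusted p = 0.0302), -0.35 in wild type (SE 0.37, edgeR adjusted p = 0.704) and -1.13 on average (SE 0.27, edgeR adjusted p = 0.0214).

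The difference between genotypes in the Xcl1 change was -1.55 (SE 0.53), with an unadjusted p of 0.0135 and an edgeR adjusted p of 1, and so was not called. Without library 12 the wild-type log2 value turned to 0.023, and without libraries 8, 9 and 12 to 0.086. The averaged call was lost without library 2 (-1.12, edgeR adjusted p = 0.0521), library 3 (-1.04, edgeR adjusted p = 0.0603) or library 5 (-1.06, edgeR adjusted p = 0.0514). Exons of Gm20743 on the opposite strand cover 18.7% of the Xcl1 exon length, and the use of strand in counting is not stated, so reads of the pair may be mixed.

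Ccl4 (ENSMUSG00000018930, chromosome 11, 83662584 to 83664683, plus strand), a ligand made by lymphocytes and macrophages, read 1.13, 1.39 and 1.39 CPM in wild type under PBS and 1.06, 1.13 and 0.685 CPM under ethanol. In knockout it read 1.52, 1.53 and 1.03 CPM under PBS and 0.621, 0.588 and 0.767 CPM under ethanol. Neither genotype's groups overlapped, but in wild type the gap between library 7 and library 11 was very small. The averaged log2 change was -0.74 (SE 0.18, edgeR adjusted p = 0.0221). The call was lost without library 1, 2, 4 or 5 (log2 -0.71 to -0.69, edgeR adjusted p 0.0515 to 0.0611) and without libraries 8, 9 and 12 (-0.54, edgeR adjusted p = 0.163).

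The XCL1 receptor Xcr1 (averaged log2 -0.24, SE 0.25) was not called. Of 12 T and NK cell markers, 6 were higher and 6 lower in the averaged effect (median log2 0.013). In wild type 10 were higher and 2 lower (median 0.19), and in knockout 5 were higher and 7 lower (median -0.088). In the averaged effect 3 were called, and all 3 rose (25%, against 5.02% of all genes). Gzma (granzyme A) had log2 0.90 (SE 0.13, edgeR adjusted p = 0.00193). Prf1 (perforin) had 0.81 (SE 0.18, edgeR adjusted p = 0.0172), and Klrb1c (an NK receptor) 0.45 (SE 0.08, edgeR adjusted p = 0.00754). The 12 markers summed to 109 to 123 CPM under PBS and 104 to 141 CPM under ethanol. No gene of the list was at 0 in any library. Their part in the fall of Xcl1 and Ccl4 was not tested.

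Ackr3, an atypical receptor that scavenges CXCL12, was the third gene lower under ethanol without overlap in both genotypes, beside Cxcl9 and Ccl4. It stood at 131, 87.5 and 120 CPM in wild type under PBS and at 69.1, 72.1 and 85.4 CPM under ethanol, and at 83.7, 95.3 and 84.7 CPM in knockout under PBS and 72.4, 80.8 and 42.1 CPM under ethanol. Library 6 was the lowest of all. The averaged log2 change of -0.51 (SE 0.16) did not pass the test (edgeR adjusted p = 0.0727). Higher without overlap in both genotypes were 4 members (9.76%, against 4.16% of all genes), and lower were 3 (7.32%, against 5.46%).

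**Figure D4:**
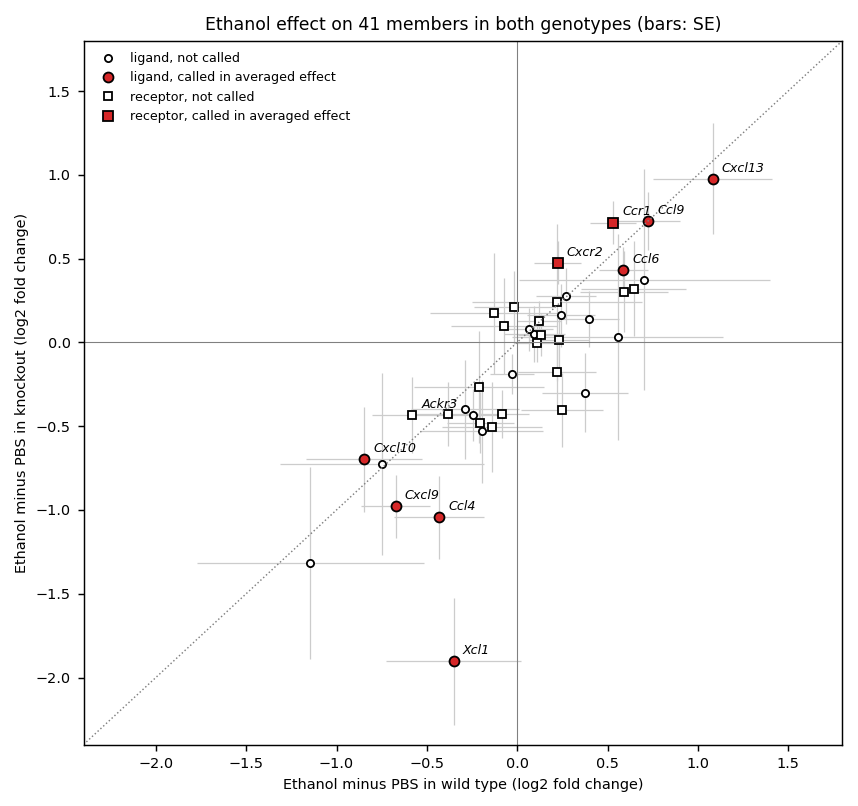
Log2 change under ethanol in wild type (x axis) and in knockout (y axis) for the 41 genes, with SE bars, circles for ligands, squares for receptors, red for the 9 called in the averaged effect and a dotted line for equal change. Ccl9 (0.73 and 0.72) lies on that line and Xcl1 (-0.35 and -1.90) far below it.

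By genotype, ethanol gave fewer calls. In wild type edgeR called 0 of the 41 genes, against 1.26% of all genes, with 10 at an unadjusted p under 0.05 (24.4%, against 16% of all genes). DESeq2 called 4 there (Ccl6, Ccl9, Ccr1 and Cxcl9), and limma-voom and limma-trend called 0. Leaving out library 12 gave 2 calls in wild type. In knockout edgeR called 3 (7.32%, against 1.87% of all genes), with Ccr1 higher (2.44%, against 0.964%) and Cxcl9 and Xcl1 lower (4.88%, against 0.903%), and 14 stood at an unadjusted p under 0.05 (34.1%, against 16.4% of all genes).

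The knockout calls depended on single libraries. None of the 3 was called without library 1, 2, 3 or 6. Ccr1 then had an edgeR adjusted p of 0.0796 to 0.101, Cxcl9, which was also lost without library 4, one of 0.0718 to 0.126, and Xcl1, lost without any 1 of libraries 1 to 6, one of 0.0678 to 0.133. Without library 4 Ccr1 alone was called, and without library 5 Ccr1 and Cxcl9. Without libraries 8 or 12, which are wild type and enter through the shared spread, filter and TMM factors, 5 were called in each case. Without libraries 8, 9 and 12 together 11 were called in knockout, the added ones being Ccl9 (log2 0.73, edgeR adjusted p = 0.0114), Ccl6 (0.43, edgeR adjusted p = 0.0339), Cxcr2, Ccl4 (-1.04, edgeR adjusted p = 0.0321), Ackr4, Ccr9, Cx3cl1 and Cx3cr1. Calls over all genes in knockout rose as well without these 3 libraries, as given under the processing below. The higher member count is therefore not particular to the family. For the averaged effect Cxcl13, Cxcl10 and Ccl4 were lost without these 3 libraries, and Ackr4, Ccr7, Ccr9, Cx3cl1 and Cxcr5 were added. That fit kept only library 7 in wild type under PBS. All 3 libraries of one gavage lay above all 3 of the other for 18 members in knockout: 6 were higher under ethanol (14.6%, against 16.3% of all genes) and 12 lower (29.3%, against 16%). In wild type 5 were higher (12.2%, against 7.32%) and 3 lower (7.32%, against 9.06%).

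Whether the ethanol change differed between genotypes was tested for each gene, and edgeR called 0 of 41 and 0% of all genes. Only Xcl1 stood at an unadjusted p under 0.05 (2.44% of the members, against 1.98% of all genes), and no member was called by DESeq2, limma-voom or limma-trend. After Xcl1 the smallest p-values were those of Ccl3 (a CCR1 ligand, log2 difference -0.67, SE 0.33) and Ccr10 (a skin-homing receptor, -0.65, SE 0.32). Of the 41 genes, 34 had the same sign of change in both genotypes (82.9%, against 73.4% of all genes).

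Between knockout and wild type edgeR called no member under either gavage. Under PBS it called 0 of 41 (0.011% of all genes), with 4 at an unadjusted p under 0.05 (9.76%, against 7.43%), and DESeq2, limma-voom and limma-trend called 0 as well. The largest departures by p were Cxcr2 at log2 -0.43 (SE 0.13), Cxcl9 at 0.48 (SE 0.19) and Ackr4, which scavenges CCL19, CCL21 and CCL25, at 0.43 (SE 0.18), each at an edgeR adjusted p of 0.605. Under PBS, Ackr4 stood at 49.7, 36.0 and 53.2 CPM in wild-type libraries and at 59.3, 57.6 and 70.2 CPM in those of the knockout, without overlap. Without overlap between genotypes under PBS, 4 members were higher in knockout (9.76%, against 8.98% of all genes) and 2 lower (4.88%, against 5.16%). For Cxcr2 the 3 knockout PBS libraries were the lowest 3 of all 12. All 14 genes of the neutrophil list were also lower in knockout under PBS (median log2 -0.28), and edgeR called 0 of them (against 0.011% of all genes). Their part in the lower Cxcr2 level was not tested.

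Under ethanol edgeR called 0 of 41 between genotypes (0.011% of all genes), with 2 at an unadjusted p under 0.05 (4.88%, against 5.78%), and the other 3 tools called 0. These were Cx3cr1, the fractalkine receptor of monocytes, at log2 -0.37 (SE 0.15) and Xcl1 at -1.01 (SE 0.40), and Ccl4 came next at -0.54 (SE 0.26), all at an edgeR adjusted p of 0.820. Under ethanol Cx3cr1 read 43.1, 41.04 and 28.4 CPM in wild-type libraries and 31.4, 29.6 and 26.3 CPM in those of the knockout, so the groups overlapped at library 12. No member was higher in knockout without overlap under ethanol (0 of 41, against 7.12% of all genes), and 3 were lower (7.32%, against 4.04%): Ccl27a, Ccr10 and Ccr2. Averaged over gavages, edgeR called 0 of 41 (0.011% of all genes), with 4 at an unadjusted p under 0.05 (9.76%, against 14.3%). DESeq2 called Cxcr2 there (log2 -0.31, DESeq2 adjusted p = 0.0417), while limma-voom and limma-trend called 0. All 14 neutrophil genes were lower in knockout under ethanol (median log2 -0.22) and averaged over gavages (median -0.26). By edgeR 0 of these 14 were called (against 0.011% of all genes), and their part in the Cxcr2 difference was not tested.

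Neighbouring chemokine genes did not always move alike. Ccl9 and Ccl6 lie 9245 bp apart on chromosome 11 and both rose. Ccl3 follows 54756 bp after Ccl6, with an averaged log2 change of 0.04 (SE 0.17), and Ccl4 lies 13228 bp beyond it and fell. On the other side Ccl5, a ligand made by T cells, lies 42400 bp before Ccl9 and had 0.27 (SE 0.12). The pair that fell on chromosome 5, Cxcl9 and Cxcl10, lies 18558 bp apart. In the receptor cluster of chromosome 9, Ccr1 rose, while Ccr3 (0.02, SE 0.15) and Ccr2 (0.12, SE 0.09) were not called.

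Other ligands with lower averages under ethanol did not pass the test. Ccl12 (a CCR2 ligand) had an averaged log2 change of -1.23 (SE 0.43, edgeR adjusted p = 0.0881), Ccl2 (the main CCR2 ligand) -0.74 (SE 0.39) and Cx3cl1 (fractalkine) -0.34 (SE 0.11, edgeR adjusted p = 0.0714). Ccl12 was among the sparsest, at 0.084 to 1.16 CPM. Ccl27a shares near-identical copies in the mouse genome, so its level is uncertain. The same holds for members whose exons overlap another gene, chiefly Ackr1 (25.7% shared with Cadm3 on the same strand), Ccr9 (18.8%), Cxcl16 (18.3%, with Zmynd15) and Ackr4 (8.9%, with Acad11).

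Genes that work with the family were read from 6 lists, in the averaged ethanol effect unless a genotype is named. In that effect 5.02% of all genes rose and 5.81% fell. Of 33 receptor signalling genes 2 rose (6.06%), Grk5 (a receptor kinase, log2 0.34, SE 0.05, edgeR adjusted p = 0.00287) and Gng2 (a G protein subunit, 0.27, SE 0.07, edgeR adjusted p = 0.0227). Of 16 adhesion genes 2 rose (12.5%), among them Itgb7 (an integrin subunit, 0.28, SE 0.08, edgeR adjusted p = 0.0383), and 2 fell (12.5%), Itgax (CD11c, -0.59, SE 0.13, edgeR adjusted p = 0.0141) and Jam2 (-0.50, SE 0.14, edgeR adjusted p = 0.0434). In all, 9 of these 16 were higher and 7 lower.

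Of 14 genes that cut or process chemokines 2 rose (14.3%), Mmp13 (collagenase 3, log2 0.89, SE 0.12, edgeR adjusted p = 0.00197) and Mmp8, given above. On a list of 20 cytokine, NF-kB and related genes 2 fell (10%). Ptgs2 (the enzyme cyclooxygenase 2) fell by 0.99 (SE 0.21, edgeR adjusted p = 0.0135). Relb (an NF-kB subunit) fell by 0.28 (SE 0.07, edgeR adjusted p = 0.0263). Among 15 related genes outside the symbol rule, such as Cxcl12, Pf4 and Ppbp, Pitpnm3 fell (6.67%, log2 -0.89, SE 0.17, edgeR adjusted p = 0.00747). Cmtm4 was called in wild type (6.67%, against 0.556% of all genes, log2 0.42, SE 0.09, edgeR adjusted p = 0.0492). Its averaged change was not called (log2 0.21, SE 0.06, edgeR adjusted p = 0.0532). Other genes of the 6 lists were also called within a genotype, among them Grk5 in wild type, Pitpnm3 in knockout and Mmp13 in both. The medians of these 6 lists in the averaged effect lay between -0.013 and 0.068.

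The remaining marker lists give the setting. Osteoblast genes were lower under ethanol in 14 of 14 cases (median log2 -0.75). Of them 9 were called (64.3%, against 5.81% of all genes), and 3 osteocyte genes of 9 fell (33.3%). Of 9 eosinophil, basophil and mast cell genes 3 fell (33.3%), namely Prg3, Prg2 and Mcpt8. Of 10 dendritic genes Flt3 rose (10%, against 5.02% of all genes, 0.87, SE 0.09, edgeR adjusted p = 0.000507) and Itgax fell (10%). Of 10 stromal genes Pdgfra rose (10%, 0.45, SE 0.13, edgeR adjusted p = 0.04995). Of 11 endothelial genes Eng rose (9.09%, 0.36, SE 0.07, edgeR adjusted p = 0.00744). No gene was called in the erythroid, platelet and skeletal muscle lists. Their part in the changes of the chemokine genes was not tested.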

How the data were processed

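RNA-seq counts per gene and a normalized signal, both deposited by the authors, were used. Per the submitters' processing notes, Trimmomatic 0.36, STAR 2.5.2b and featureCounts of Subread 1.5.2 were run with build GRCm38, and neither their settings nor the use of strand is stated. The normalized signal equals the deposited counts divided by 1 factor per library, and lists genes with a mean count above about 10. The count table held 49315 genes. Genes were kept by edgeR's filterByExpr (minimum count 10, minimum total 15), which left 18161. edgeR 4.0.16 (R 4.3.3) fitted 1 coefficient per group with TMM factors and a robust quasi-likelihood test on 8 residual degrees of freedom. Adjusted p-values are Benjamini-Hochberg over all genes tested, with 0.05 as the threshold. An averaged effect is the mean of both genotypes or gavages. CPM values use TMM-scaled totals, and CPM/kb divides them by the exon length in GENCODE M21. DESeq2 1.42.0 and limma 3.58.1 served as alternatives. Named genes were those called, the 3 smallest p per comparison, the 6 highest ligands and receptors and those without overlap in both genotypes, and some others were added after their values were seen. The members and the 20 gene lists were chosen with earlier results of these data known, and 4 list symbols had no match. The fit was tested on simulated data with 200 changed genes. In each group, all pairs of libraries differed beyond counting noise. A few genes are counted in the totals but not reported here.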

Additional observations from a re-analysis of the deposited data

How the results depend on the processing

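The number of members called differed between settings. For ethanol in wild type it was 0, and it became 4 with DESeq2 and 2 with either the skeletal muscle or the neutrophil list as a covariate. Leaving out 1 library gave 0 to 2. For ethanol in knockout it was 3, and it became 7 with DESeq2, 11 with only the groups compared, 5 with either covariate and 11 without libraries 8, 9 and 12. Leaving out 1 library gave 0 to 5. For the averaged ethanol effect it was 9, with 8 to 12 under other settings and 4 (without library 2) to 11 (without library 8) when 1 library was left out. For the averaged knockout effect it was 0, and 1 with DESeq2. The cause of these differences was not tested. Fits that leave out libraries also have fewer samples. Over all genes the same choices moved the calls for ethanol in wild type from 229 to 709 with DESeq2, to 4 with only the groups compared and to 37 without libraries 8, 9 and 12, and for ethanol in knockout from 339 to 951, 1677 and 1342. The counts over all genes are not given here for the averaged effect, the covariate fits or the fits without 1 library. The member counts of those settings therefore show by themselves no shift particular to the family. The Xcl1 change in wild type (log2 -0.35) reversed to 0.086 without libraries 8, 9 and 12 and to 0.023 without library 12, and leaving out 1 library gave -0.59 (without library 11) to 0.023. Other normalization factors shifted the median of all genes by at most 0.034 on the log2 scale. No paired analysis was possible because the groups share no replicate number. Depth limits the 14 members with a mean count under 50, and PCR reads without molecular identifiers are not independent molecules, so counting limits cover counting error only.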

Other observations

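The count table also held 17 protein-coding genes of the family that lie below the normalized table's minimum. These genes were left out of the member set, and no test results are given for them here. The highest was Ccl7, a CCR2 ligand, with a mean of 8.58 counts per library, a lowest count of 1 and a highest of 19. Ccl28 had a mean of 7.5 counts. Ccl24, an eosinophil attractant, had 8, 20 and 11 counts in the knockout PBS libraries and 3 to 6 in the other 9. Cxcl1, the best known CXCR2 ligand of mice, had a mean of 4.33 counts and was at 0 in 1 library. Ccl20, Ccl21a, Ccl21b and Ccl26 were at 0 in all 12 libraries, which allows up to 0.104 to 0.158 CPM per library (3 counts). Ccl21a and Ccl21b have near-identical copies, whose reads counting can drop.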
